A study of Vitis amurensis with 6 samples.

Results

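The genes described here are 7 glutathione S-transferase genes of grape, out of 31845 gene identifiers in the deposited table. Of these, 6 carry chromosome field 19 and scaffold field 0093 in their identifiers and were selected as tau-class enzymes. The other is VIT_204s0079g00690, of chromosome field 04, selected as GST4, the glutathione S-transferase linked to anthocyanin pigments. The choice of genes was made with the cold and control values of these libraries known, so their levels and differences between the groups are given as a description, with no test. The deposited table pairs no identifier with a name, so class and gene names could not be checked against it, and the chromosome and scaffold fields were read from the identifiers and not from a genome.

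RNA was sequenced from leaves of in vitro plants of Vitis amurensis, a cold-hardy wild grape, all of them wild type, 1 month old and subcultured on B5-based medium with 0.2 mg/L of the auxin IBA. The cold group (3 libraries) was held for 2 h at 4 °C in a chilled incubator, and the control group (3 libraries) stayed at 26 °C, both at a light level of about 100 µmol per square metre and second. The comparison addresses which genes respond early to chilling. The labels do not state whether replicates are separate plants, so the spread between them may in part be technical. The hour of sampling is also unstated, and the time that passed and the move to the incubator cannot be told apart from the temperature. Reads per library, recovered from the deposited values, ran from 18773557 to 21217704 in cold libraries and from 16437001 to 16657708 in control libraries, the cold libraries all being the deeper ones. No cell type or tissue marker could be looked up in the table, and in whole leaves fewer cells of a type and less RNA per cell cannot be told apart.

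Glutathione S-transferases join the tripeptide glutathione to reactive compounds, and some of them bind or reduce other molecules. The tau class is found in plants, is encoded by tandem arrays of related genes in many species, and is known for genes that respond to stress, hormones and foreign chemicals. Grape GST4 belongs to another class and is known for its role in moving anthocyanins into the vacuole of coloured tissues. All levels below are FPKM, that is, reads scaled to gene length and to the size of the library, as the authors deposited them. Log2 changes are cold minus control of log2(FPKM + 1), a scale on which differences between low levels look smaller than they are. Of the 7 genes, 4 reached a mean of 1 FPKM over all libraries, the filter for the fit across all genes.

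The chromosome 19 genes did not move as a block. VIT_219s0093g00110 was about 30-fold higher in cold leaves, VIT_219s0093g00310 was at most slightly higher, and VIT_219s0093g00220, which supplied most of the transcripts of the group, was lower on average. GST4 stood far lower in cold leaves than in control leaves, by 28.9-fold in the ratio of means. The remaining 3 genes were read rarely or never. Of the 7 genes, 3 lay higher in every cold library than in every control library, and 1 lay lower in every cold library. This balance depended on the scaling, with 2 genes higher and 2 lower in every cold library under median-of-ratios scaling, and 2 higher and 3 lower under quantile normalization. Over all 17155 tested genes 31.6% lay higher in every cold library and 19.7% lower on the deposited scale. The shares under the other scalings were not computed, and 3 of the 7 genes are not among the tested genes. Nothing is read from the comparison of counts and shares, because the genes were selected on this contrast. The median log2 change over the 7 genes was 0.02, the value of VIT_219s0093g00160, a gene under the filter with few reads. It was 0.08 over all tested genes, which leave out genes under the filter, so the medians are of unlike sets.

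**Figure D1:**
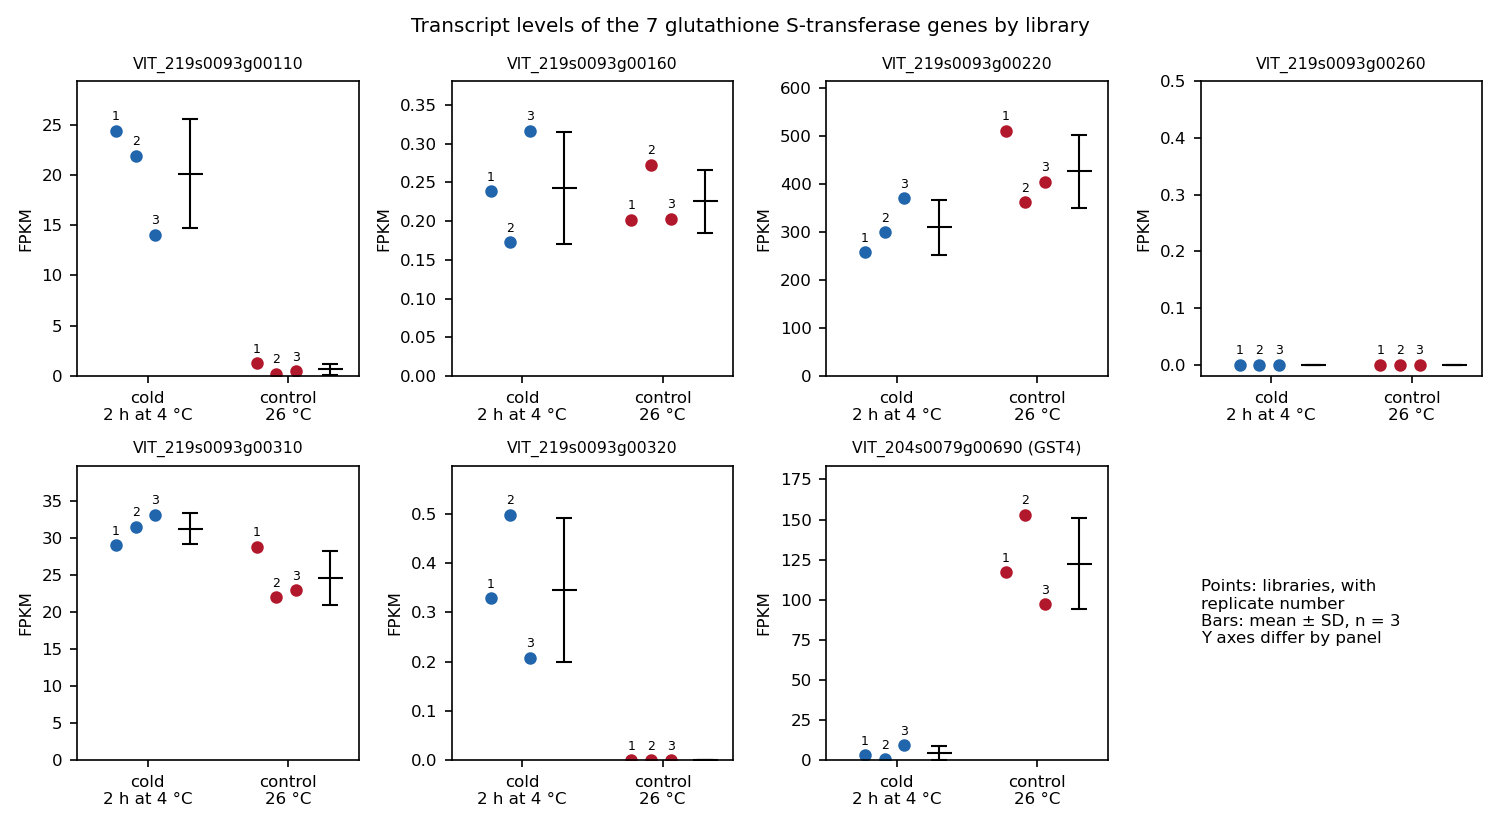
Level in FPKM of each of the 7 genes in the 3 cold and 3 control libraries, with replicate numbers beside the points and bars for the mean ± SD (n = 3); the y axes differ by panel. The cold points of VIT_219s0093g00110 lie between 14.1 and 24.4 FPKM, above all control points, those of GST4 lie between 0.537 and 9.29 FPKM, below all control points, and the groups of VIT_219s0093g00220 overlap.

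VIT_219s0093g00110 had 24.4, 21.9 and 14.1 FPKM in cold libraries 1, 2 and 3, against 1.27, 0.237 and 0.504 FPKM in control libraries 1, 2 and 3. Every cold library was high and every control library low, with a gap of 12.8 FPKM between the groups. These levels rest on 823, 766 and 536 reads in the cold libraries, against 38, 7 and 15 reads in the control libraries. The mean was 20.1 ± 5.40 FPKM in cold and 0.671 ± 0.536 FPKM in control (SD, n = 3 each), and the log2 change was 3.67 with a standard error of 0.28. The gene entered the fit only through its level in cold, since its control mean was under the filter.

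The size of the difference depended on control library 1. The ratio of means was 30.0 with all libraries and 54.3 without control library 1, which held more reads of the gene than control libraries 2 and 3 together. Leaving out any other library gave ratios from 22.7 to 34.5. By level the gene ranked 5267 among 24435 genes above 0 in cold leaves, against 17552 among 23557 in control leaves. On the log2 scale 69 of the tested genes had a larger change towards cold.

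VIT_219s0093g00220 was the abundant gene of the group in both conditions. It had 258, 300 and 371 FPKM in cold libraries 1, 2 and 3, against 512, 362 and 405 FPKM in control libraries 1, 2 and 3. The groups overlapped, because cold library 3 lay above control library 2. The mean was 310 ± 56.8 FPKM in cold and 426 ± 76.9 FPKM in control (SD, n = 3 each), with a log2 change of -0.46 and a standard error of 0.18. Under median-of-ratios scaling its cold levels ran from 253 to 344 FPKM, against 365 to 529 FPKM in control. Under quantile normalization they ran from 257 to 364 FPKM, against 371 to 527 FPKM in control. The groups no longer overlapped under either, so whether they touch is decided by the scaling. Between libraries of a group the level varied by 18.3% of the mean in cold and 18.0% in control, while the reads behind it, 6714 to 10886 per cold library and 8242 to 11797 per control library, would give about 1.08% and 1.01% from counting alone.

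By level VIT_219s0093g00220 ranked 186 among the genes above 0 in cold leaves and 128 in control leaves. It made up 85.6% of the summed FPKM of the 6 chromosome 19 genes in cold and 94.4% in control. The summed level of the 6 genes therefore followed it, with 362 ± 53.4 FPKM in cold and 452 ± 81.1 FPKM in control (SD, n = 3 each) and overlapping groups. Within single libraries its share was 82.7%, 84.7% and 88.6% in cold libraries 1, 2 and 3, against 94.4%, 94.1% and 94.5% in control libraries 1, 2 and 3, so the make-up of the group shifted in each cold library although the sum overlapped. The other 5 genes together, a sum formed after the values were seen, had 54.0, 54.1 and 47.8 FPKM in cold libraries, against 30.3, 22.5 and 23.7 FPKM in control libraries. VIT_219s0093g00110 made up 5.56% of the summed level in cold and 0.148% in control, and VIT_219s0093g00310 made up 8.64% and 5.45%.

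VIT_219s0093g00310 was read at a moderate and steady level. It had 29.0, 31.5 and 33.2 FPKM in cold libraries 1, 2 and 3, against 28.8, 22.0 and 23.0 FPKM in control libraries 1, 2 and 3. The groups did not overlap, but the gap between cold library 1 and control library 1 was 0.211 FPKM. The mean was 31.2 ± 2.08 FPKM in cold and 24.6 ± 3.69 FPKM in control (SD, n = 3 each), which gave a log2 change of 0.34 and a standard error of 0.12. The groups overlapped under both other scalings, at 28.4 to 30.9 FPKM in cold against 22.2 to 29.8 FPKM in control with median-of-ratios scaling, and at 28.4 to 31.8 FPKM against 22.6 to 29.2 FPKM with quantile normalization. Quantile normalization also moved the median change of all tested genes from 0.08 to -0.03, and the change of this gene was then 0.26.

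The 3 other chromosome 19 genes stayed under the filter. VIT_219s0093g00320 had 7, 11 and 5 reads in cold libraries 1, 2 and 3, against 0 reads in each control library. In FPKM this was 0.329, 0.499 and 0.208 in the cold libraries, and it is listed at 0 in the controls. Each cold library was thus above each control library, at a very low level. Against a floor of 3 reads for the pooled controls, the pooled cold reads gave a 6.40-fold higher level, which is not a lower bound. The 95% Poisson interval of the gene's pooled level was 0.245 to 0.580 RPM (reads scaled to library size alone) in cold. In the pooled controls the floor is 0.0604 RPM, and the upper 95% limit for 0 reads is 0.0743 RPM. These intervals and floors cover counting error only, and the cold libraries were the deeper ones, which the scaling to library size takes into account.

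VIT_219s0093g00160 had 4, 3 and 6 reads in cold libraries 1, 2 and 3, against 3, 4 and 3 reads in control libraries 1, 2 and 3. The levels were 0.243 ± 0.0722 FPKM in cold and 0.226 ± 0.0406 FPKM in control (SD, n = 3 each), and the groups overlapped. The pooled 95% Poisson intervals, 0.116 to 0.374 RPM in cold and 0.0966 to 0.370 in control, overlapped almost fully, so no difference was detectable at this depth. Under quantile normalization every cold library lay below every control library, at 0.145 to 0.261 FPKM in cold against 0.265 to 0.302 FPKM in control, still on the same 3 to 6 reads per library. VIT_219s0093g00260 had no read in any library, and 3 reads would correspond to between 0.141 and 0.183 RPM in a single library.

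**Figure D2:**
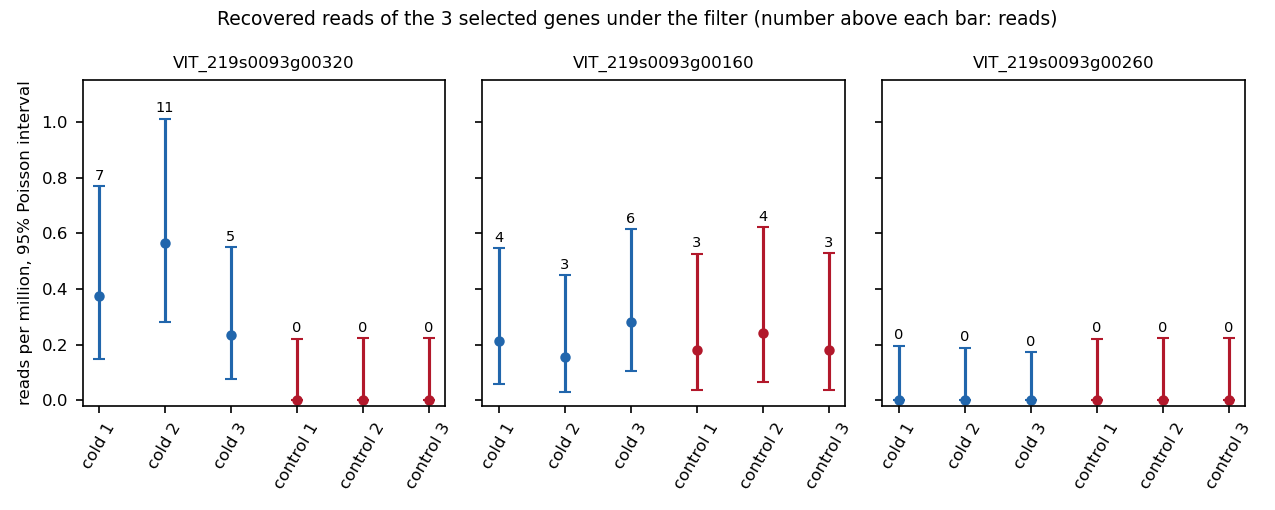
Recovered reads of the 3 genes under the filter in each library, as RPM with exact 95% Poisson intervals for counting error; the number above each bar is the read count. VIT_219s0093g00320 has 5 to 11 reads in the cold libraries and 0 in each control library, VIT_219s0093g00160 has 3 to 6 and 3 to 4, and VIT_219s0093g00260 has none.

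GST4, VIT_204s0079g00690, was abundant in control leaves and low in cold leaves. It had 2.89, 0.537 and 9.29 FPKM in cold libraries 1, 2 and 3, against 117, 153 and 97.3 FPKM in control libraries 1, 2 and 3. Every cold library was low and every control library high, with a gap of 88.0 FPKM. The reads behind these levels were 78, 15 and 283 in the cold libraries, against 2799, 3613 and 2315 in the control libraries. The mean was 4.24 ± 4.53 FPKM in cold and 122 ± 28.3 FPKM in control (SD, n = 3 each), which gave a log2 change of -4.94 and a standard error of 0.63.

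The cold libraries differed widely among themselves in GST4. Cold library 3 held 9.29 FPKM and cold library 2 held 0.537 FPKM, each outside the 95% counting interval of the other, since their RPM were 13.3 (11.8 to 15.0) and 0.770 (0.431 to 1.27). The control mean was 28.9 times the cold mean with all libraries, 71.4 times without cold library 3 and 20.1 times without cold library 2. Leaving out any other library gave ratios from 24.9 to 31.9. By level GST4 ranked 12827 among the genes above 0 in cold leaves, against 662 in control leaves. On the log2 scale 2 of the tested genes had a larger change towards control.

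The order of levels changed between the groups. In cold leaves it ran VIT_219s0093g00220, VIT_219s0093g00310, VIT_219s0093g00110, GST4, VIT_219s0093g00320, VIT_219s0093g00160 and VIT_219s0093g00260. In control leaves it ran VIT_219s0093g00220, GST4, VIT_219s0093g00310, VIT_219s0093g00110, VIT_219s0093g00160 and then VIT_219s0093g00320 and VIT_219s0093g00260, both listed at 0. Neighbours whose libraries overlapped were VIT_219s0093g00320 and VIT_219s0093g00160 in cold, at 0.208 to 0.499 against 0.173 to 0.317 FPKM, and VIT_219s0093g00110 and VIT_219s0093g00160 in control, at 0.237 to 1.27 against 0.202 to 0.273 FPKM. All other neighbours above 0 were separated in all 3 libraries of the group.

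The cold libraries also differed in how far each gene stood from control. Cold library 3 was the cold library nearest to the control levels for VIT_219s0093g00110, for VIT_219s0093g00220, for VIT_219s0093g00320 and for GST4. For VIT_219s0093g00310 it was the farthest, and so it was from the control mean for VIT_219s0093g00160. Among the controls, control library 1 was the highest for VIT_219s0093g00110, for VIT_219s0093g00220 and for VIT_219s0093g00310. It was the lowest for VIT_219s0093g00160 and lay between the others for GST4. Replicates have no order, and the cause of the difference between them was not tested.

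**Figure D3:**
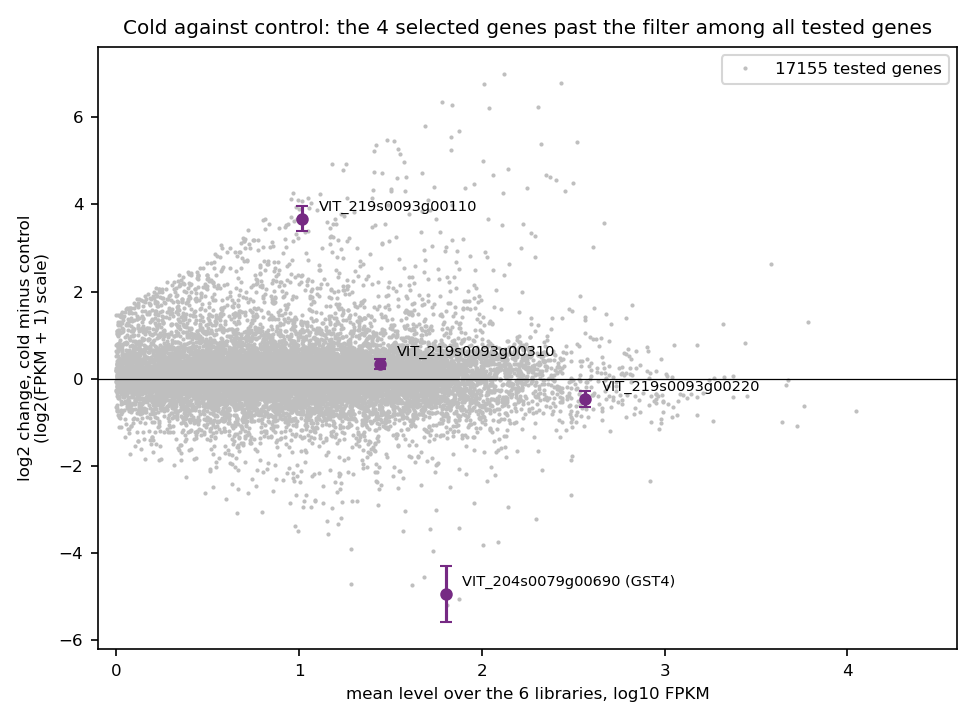
Log2 change, cold minus control, on the log2(FPKM + 1) scale, against the mean level over all 6 libraries on a log10 scale, for the 17155 tested genes (grey) and the 4 selected genes past the filter (purple, bars for the standard error of the fit). VIT_219s0093g00110 stands at 3.67 and GST4 at -4.94, while VIT_219s0093g00310 and VIT_219s0093g00220 lie within the bulk at 0.34 and -0.46.

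The table holds 50 identifiers of scaffold field 0093 on chromosome field 19, of which the 6 selected genes are part. Among the 44 others, 16 had no read in any library, 14 had reads but stayed under the filter and 14 were tested. Of those 14, 5 were called higher and 2 lower in cold (limma-trend, adjusted p under 0.05), where 21.0% and 13.4% of all tested genes were called higher and lower. The selected genes were picked out of these rows, so the rest is not an independent set, and the products of the other rows are not named in the table. The filter also shaped the call counts, as rows named after their values were seen show. VIT_219s0093g00150 and VIT_219s0093g00435, both called higher, passed it only through cold, at means of 4.71 and 2.87 FPKM against 0.444 and 0.183 FPKM in control. VIT_219s0093g00120 and VIT_219s0093g00360 were lower in every cold library but stayed under the filter. Nothing is read from the balance of the calls.

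Levels changed abruptly from one identifier to the next. The row that precedes VIT_219s0093g00110 had no read in any library, and the row that follows it, also under the filter, averaged 0.385 FPKM in cold and 1.09 FPKM in control. VIT_219s0093g00160 is preceded by VIT_219s0093g00150, a row named here after its values were seen, with 3.53, 4.68 and 5.92 FPKM in cold libraries against 0.912, 0.252 and 0.167 FPKM in control libraries. The abundant VIT_219s0093g00220 is followed by a row with no read. The row after VIT_219s0093g00320 averaged 31.5 FPKM in cold and 11.3 FPKM in control. No source used here says how reads that match several near-identical genes were counted, so the split of reads between these genes, and the lack of reads in VIT_219s0093g00260, are uncertain.

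**Figure D4:**
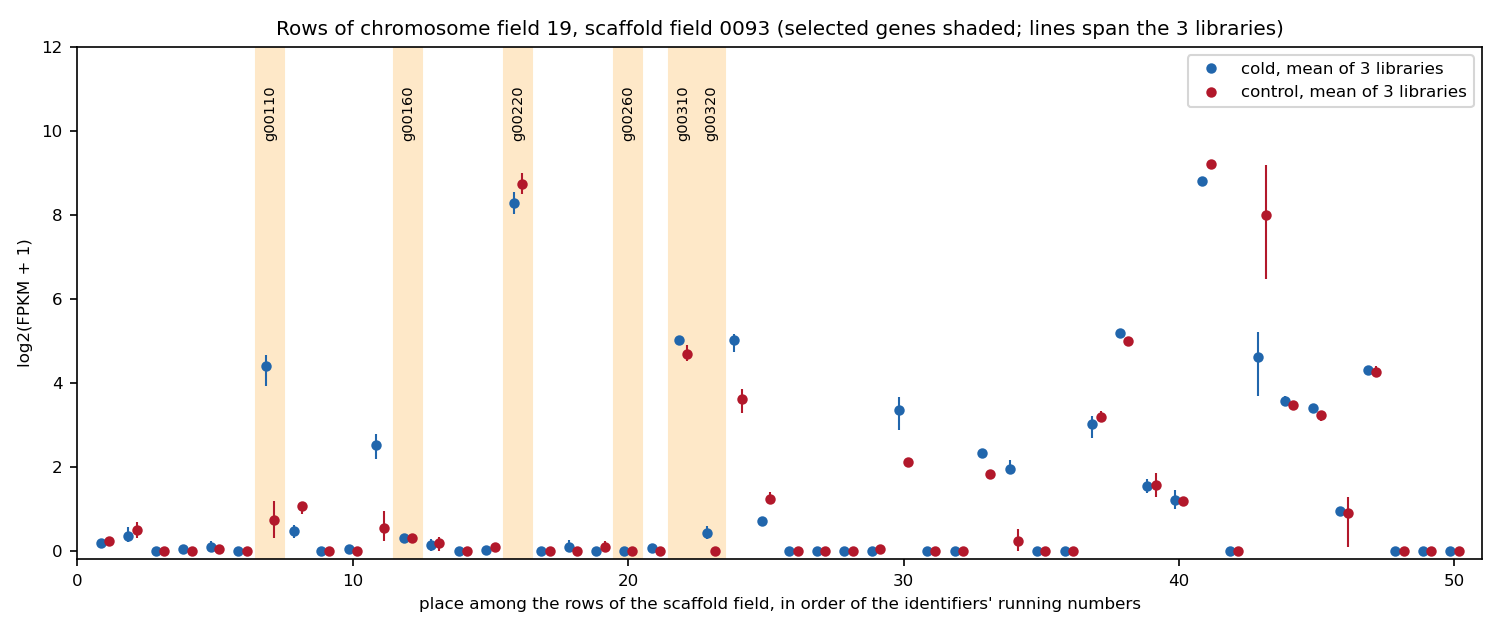
Mean level on the log2(FPKM + 1) scale in cold and control libraries for the 50 rows of scaffold field 0093, in the order of their running numbers, with lines spanning the 3 libraries of a group and the 6 selected genes shaded. VIT_219s0093g00220 stands between rows at or near 0 in both groups, whereas VIT_219s0093g00110 stands above both neighbours in cold, and in control its mean of 0.671 FPKM is below the 1.09 FPKM of the row that follows.

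The recovered reads also gave a length for each gene with reads, which the choice of genes did not use. It was 1796 bases for VIT_219s0093g00110, 1384 for VIT_219s0093g00220, 1216 for VIT_219s0093g00310, 1133 for VIT_219s0093g00320, 892 for VIT_219s0093g00160 and 1436 for GST4. VIT_219s0093g00260 has no reads and so no length. These are the lengths by which the authors' values were scaled. With few reads, as in VIT_219s0093g00160, the true length and the true reads may be the same whole multiple of those given.

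The tested genes whose levels followed the summed level of the 6 chromosome 19 genes most closely were VIT_207s0005g02990 and VIT_201s0011g04310, with Pearson correlations of 0.994 and 0.992 over the 6 libraries. The 6 points share their libraries with all other genes, and 17151 genes were compared, so this is a description only. VIT_207s0005g02990 averaged 41.9 FPKM in cold and 47.8 FPKM in control, and VIT_201s0011g04310 averaged 248 and 289 FPKM. As in the summed level, control library 1 was the highest and cold library 1 the lowest of the 6 libraries in both genes. For the single genes with the widest difference, the closest gene was looked up after their values were seen. It was VIT_208s0007g08390 for VIT_219s0093g00110 (correlation 0.999) and VIT_219s0014g01260 for GST4 (correlation 0.998). Correlations over 0.99 were reached by 128 genes for VIT_219s0093g00110 and by 15 genes for GST4, so neither match is particular. VIT_208s0007g08390 averaged 138 FPKM in cold and 112 FPKM in control, and VIT_219s0014g01260 averaged 15.2 and 18.1 FPKM. Their patterns across the libraries were alike, but the differences between the groups were far smaller than those of VIT_219s0093g00110 and GST4.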

How the data were processed

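RNA sequencing of 3 cold and 3 control libraries was analysed from 1 table of FPKM values, which the authors deposited. The tools are named, without version or role, per the submitters' processing notes (STAR, HTSeq, DESeq2, cutadapt, FastQC). No source used here names the genome build, the annotation, the counting mode or the strand setting. Groups and replicate numbers come from the titles, and no column was left unused.

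The genes and their groupings were chosen with earlier results of these data known. The 17155 genes whose mean over the 6 libraries reached 1 FPKM were fitted by limma-trend (log2 of FPKM + 1, two-sided, adjusted after Benjamini and Hochberg, threshold 0.05). All 7 selected genes are named whatever their values. The other genes named are those most correlated with the summed level of the 6 chromosome 19 genes, limited to 2 because no table annotates the identifiers, and those said to have been chosen after their values were seen.

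After each library was rescaled for its depth, the FPKM values of a gene were whole multiples of 1 step. This gave library totals, gene lengths and whole reads (within 0.001) for 25054 of 25054 genes above 0. The smallest length that gave whole reads was taken. Where the true length is a whole multiple of it, the true reads are the same multiple. The Poisson intervals use the reads as recovered. These summed to between 99.4% and 99.6% of the library totals, and the cause of the shortfall was not tested. Depth ran from 16437001 to 21217704 reads. On simulated data for the cold against control fit, 16955 of 17155 genes were left unchanged. The fit found 30 of 50 genes with a 1.5-fold change, 47 of 50 with a 2-fold change and all 50 at 4-fold and 8-fold. It made 17 calls among the unchanged genes. On the deposited values 3606 genes were called higher and 2295 lower. The SD between cold libraries was 6.66% of the mean for VIT_219s0093g00310 and 107% for GST4. Whether the rates from simulated data hold for deposited values with such uneven spread was not tested. Lists by product name, tissue markers and sequence comparisons were not run, since no annotation was used here. Alternatives were another pseudocount, filters, scalings, a replicate block, limma-voom on recovered reads and leaving out each library. Software was limma 3.58.1 in R 4.3.3, and pandas 2.3.3, numpy 2.4.6, SciPy 1.17.1 and matplotlib 3.10.9 in Python 3.11.15.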

Additional observations from a re-analysis of the deposited data

How the results depend on the processing

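Of the values recomputed under alternatives, 108 stayed within the spread between replicates or within 1.5 times the reported count. Beyond these limits, 5 log2 changes moved and 2 counts of called genes were lower. Many of the 108 could not change, because another filter or a replicate block leaves the log2 change of a gene as it was by construction. With a pseudocount of 0.1 the log2 change was 4.91 for VIT_219s0093g00110 and 2.10 for VIT_219s0093g00320, and with limma-voom on recovered reads it was 5.14 and 3.70; a smaller pseudocount enlarges changes of low genes by construction. With quantile normalization the log2 change of VIT_219s0093g00160 was -0.095, against 0.02 as deposited; the cause was not tested. When single libraries were left out, 2253 to 4180 genes were called higher and 1425 to 2746 lower, against 3606 and 2295 with all. The low ends came without cold library 2 and the high ends without control library 1, and the cause was not tested. Log2 changes then ran from 3.48 to 3.92 for VIT_219s0093g00110, from -0.60 to -0.32 for VIT_219s0093g00220, from 0.27 to 0.45 for VIT_219s0093g00310, from 0.34 to 0.50 for VIT_219s0093g00320, from -0.02 to 0.06 for VIT_219s0093g00160, from -5.63 to -4.26 for GST4 and from -0.43 to -0.18 for the summed level of the 6 genes. Genes called higher were 61.1% of the calls on deposited values, 45.8% after quantile normalization and 49.0% under median-of-ratios scaling. A replicate block, on the numbers in the titles, gave 2480 genes called higher and 1627 lower. The log2 changes of the 7 genes are then the same by construction. The labels do not say that a number pairs libraries. Deviations from the group means correlated at -0.26, -0.13 and -0.28 between libraries of the same number. With 3 libraries per group, whose deviations sum to 0, these values cannot decide whether libraries were paired. Genes with few reads, VIT_219s0093g00160, VIT_219s0093g00260 and VIT_219s0093g00320, are limited by depth.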

Other observations

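Further along the same scaffold field, VIT_219s0093g00550, a row outside the selected genes and named after its values were seen, had 11.8, 22.4 and 36.0 FPKM in cold libraries 1, 2 and 3, against 582, 95.1 and 87.5 FPKM in control libraries 1, 2 and 3. Every cold library was below every control library, and control library 1 was far above the other controls. Its product is not named in the table. In GST4, by contrast, control library 1 lay between the other 2 control libraries, at 117 FPKM against 153 and 97.3 FPKM.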
